A study of Homo sapiens with 5 samples.

Results

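The genes described are 9 enzymes of serine synthesis and of folate one-carbon metabolism, PHGDH, PSAT1, PSPH, SHMT1, SHMT2, MTHFD1, MTHFD1L, MTHFD2 and ALDH1L2, out of 31173 gene symbols in the deposited count table. They were taken by symbol, and the choice used measured values: ALDH1L2 was picked because its reads were nearly lost in the CFIm59 knockout lines. Its values in those lines are therefore a description with no test, and the same control library enters its comparison with the CFIm68 knockout lines. Poly(A) site sequencing counted reads at mRNA 3′ ends in HEK293T, a human embryonic kidney cell line that carries the SV40 large T antigen. The libraries came from CFIm68 knockout line 1 and line 2, CFIm59 knockout line 1 and line 2, and 1 wild-type control, all HEK293T grown in DMEM with 5% serum. The knockouts were made with CRISPR/Cas9. Which part of each gene was edited, and whether each line came from a single clone, is not stated in these sources.

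CFIm68 (gene CPSF6) and CFIm59 (gene CPSF7) are alternative partners of CFIm25 (gene NUDT21) in cleavage factor Im, which binds UGUA in pre-mRNA and helps to choose where the 3′ end is made. The study set cells lacking either partner against each other and against the parental line to ask how each acts on 3′ end processing.

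Serine is made from the glycolytic intermediate 3-phosphoglycerate by PHGDH, PSAT1 and PSPH, acting in that order. SHMT2 in mitochondria and SHMT1 in the cytosol pass a carbon of serine to tetrahydrofolate, making glycine. In mitochondria MTHFD2 then oxidises this carbon, and MTHFD1L releases it as formate. ALDH1L2 can instead oxidise 10-formyltetrahydrofolate to CO2 with the formation of NADPH, and cytosolic MTHFD1 takes formate back into the folate pool. PHGDH, PSAT1, SHMT2, MTHFD2 and ALDH1L2 are known targets of the stress transcription factor ATF4.

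The libraries held 2727728 and 2078376 reads from the CFIm68 knockout lines, 1673687 and 2585923 reads from the CFIm59 knockout lines and 2924266 reads from the control. Mitochondrially encoded sites took 6.01% to 10.8% of reads. CPSF6 had 48.0 and 45.7 CPM (read counts rescaled by library total and the TMM factor of edgeR) in the CFIm68 knockout lines, 141 and 142 CPM in the CFIm59 knockout lines and 120 CPM in the control, and fell in the CFIm68 knockout lines (log2 change −1.35, SE 0.25, edgeR adjusted p = 5.12e-04). CPSF7 had 127.5 and 204.2 CPM in the CFIm68 knockout lines, 68.4 and 55.5 CPM in the CFIm59 knockout lines and 59.8 CPM in the control. It rose in the CFIm68 knockout lines (log2 change 1.47, SE 0.29, edgeR adjusted p = 9.25e-04) and was not called in the CFIm59 knockout lines (0.04, edgeR adjusted p = 0.947), so 3′ end reads do not check the CFIm59 knockout label. All 8 genes listed for HEK293 cells had reads, and summed to 902 and 722 CPM in the CFIm68 knockout lines, 956 and 927 CPM in the CFIm59 knockout lines and 1415 CPM in the control, most of it VIM. The lower sums do not hold for the list as a whole. Among the 7 genes tested the median log2 change was 0.73 in the CFIm68 and 0.16 in the CFIm59 knockout lines. In the CFIm68 knockout lines 2 of the 7 were called lower (2.03% of all genes) and in the CFIm59 knockout lines 1 (6.87%), with 0 called higher in either. Blood cell markers, 6 of 6 with reads, summed to between 0.414 and 6.39 CPM, the highest in the control (16 HBA1 reads), and fibroblast markers, 4 of 5 with reads, to between 11.4 and 19.1 CPM. Epithelial markers, 3 of 5 with reads, summed to 16.7 and 10.2 CPM in the CFIm68 knockout lines, 56.5 and 14.5 CPM in the CFIm59 knockout lines and 10.2 CPM in the control, and COL1A2, KRT5 and KRT14 had no read in any library. The part of these markers in the results below was not tested. The control is 1 library and enters both comparisons with it, and the p-values measure the spread between cell lines of 1 genotype. In libraries made from whole cultures, fewer cells that express a gene and less RNA per cell cannot be told apart.

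PHGDH, PSAT1 and MTHFD2 were the members whose reads passed the test in the CFIm59 knockout lines apart from ALDH1L2, so their promoters are printed, with that of MTHFD1L, the member with a match to the ATF4 element searched. Of the 4 MTHFD1L windows, 2 that overlap share this 1 match and the other 2 hold none, and 1 with the match is printed. RefSeq promoters (GRCh38.p14, the 250 bases before the annotated start, plus strand) were matched for 6 of the 9 members, while SHMT2, ALDH1L2 and PSPH are named only. Capitals mark matches, on either strand, to TGATGNAA (the element of ATF4 with C/EBP partners), CACGTG (E-box) and CCAAT (bound by NF-Y). The last 2 motifs were added after the data were seen. The promoters lie at chr1:119711684-119711933 for PHGDH, chr9:78296875-78297124 for PSAT1, chr2:74198365-74198614 for MTHFD2 and chr6:150866197-150866446 for 1 of the 4 MTHFD1L starts.

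PHGDH: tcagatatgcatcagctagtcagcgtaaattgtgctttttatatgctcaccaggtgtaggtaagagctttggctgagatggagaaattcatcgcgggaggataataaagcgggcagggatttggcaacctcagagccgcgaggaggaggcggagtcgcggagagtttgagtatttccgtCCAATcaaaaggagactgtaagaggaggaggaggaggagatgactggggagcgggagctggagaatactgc
PSAT1: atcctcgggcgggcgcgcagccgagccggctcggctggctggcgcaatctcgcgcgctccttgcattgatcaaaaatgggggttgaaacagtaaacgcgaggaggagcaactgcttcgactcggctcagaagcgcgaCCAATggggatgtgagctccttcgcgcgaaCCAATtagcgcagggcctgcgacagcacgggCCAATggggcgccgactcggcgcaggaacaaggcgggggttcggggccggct
MTHFD2: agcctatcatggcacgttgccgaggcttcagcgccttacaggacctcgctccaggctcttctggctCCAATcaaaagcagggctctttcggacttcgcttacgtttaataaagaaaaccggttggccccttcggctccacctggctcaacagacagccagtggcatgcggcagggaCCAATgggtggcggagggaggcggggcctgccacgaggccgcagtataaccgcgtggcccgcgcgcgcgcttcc
MTHFD1L: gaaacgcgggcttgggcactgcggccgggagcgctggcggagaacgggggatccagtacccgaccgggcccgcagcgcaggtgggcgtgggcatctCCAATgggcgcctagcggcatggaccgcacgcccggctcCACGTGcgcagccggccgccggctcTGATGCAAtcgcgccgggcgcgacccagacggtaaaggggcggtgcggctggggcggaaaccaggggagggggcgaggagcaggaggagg

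PHGDH held 1, PSAT1 3 and MTHFD2 2 CCAAT matches, and none of these windows held the other motifs. The MTHFD1L window held 1 match to each of the 3 motifs. Of the members not printed, MTHFD1 held 1 CCAAT and 1 CACGTG match, and SHMT1 held 2 CCAAT matches. CCAAT was thus not particular to the members called lower. Among 35116 RefSeq promoters of the same length, 32.0% held CCAAT, 6.34% CACGTG and 3.14% TGATGNAA. A window without a match says only that these letters are not in it.

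The serine synthesis enzymes PHGDH and PSAT1 fell in both knockouts, and PSPH did not pass the test in either. The largest difference of the 9 genes was that of ALDH1L2 in the CFIm59 knockout lines, for which it was chosen. All 9 log2 changes were negative in the CFIm68 knockout lines. In the CFIm59 knockout lines all but that of SHMT2 were negative, that of ALDH1L2 by its choice. Of the 9 members, 3 were called lower in the CFIm68 knockout lines (2 of 8 without ALDH1L2), where 2.03% of the 14636 genes tested were called lower and 1.59% higher. In the CFIm59 knockout lines 3 of the 8 members other than ALDH1L2 were called lower, where 6.87% of all genes were called lower and 6.98% higher. The median log2 change of the 9 members was −0.47 in the CFIm68 knockout lines. For the 8 members without ALDH1L2 it was −0.42 in the CFIm68 and −0.41 in the CFIm59 knockout lines, beside 0.02 over all genes in each. In the CFIm68 knockout lines 8 of 9 members lay below the control in both lines, as did 36.4% of all genes. Of the 9, 8 did so in the CFIm59 knockout lines, ALDH1L2 among them by its choice, as did 39.9% of all genes. The same control library enters both comparisons. The choice of ALDH1L2 used that library, so the CFIm68 counts and median that include ALDH1L2 are not independent of its choice.

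**Figure D1:**
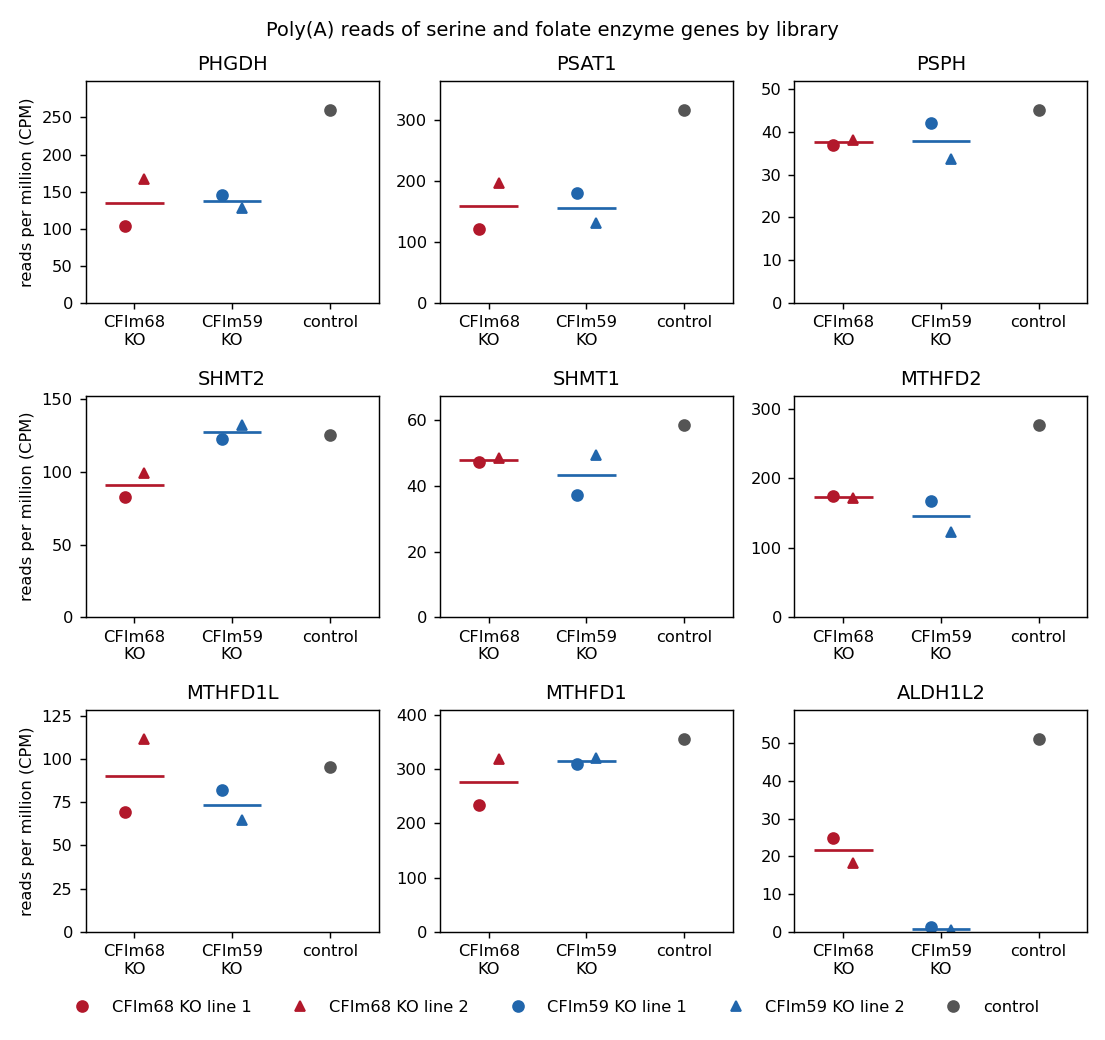
Reads in CPM (linear axes from 0) of the 9 genes in each library, with circles for line 1, triangles for line 2 and a horizontal line at the mean of the 2 lines of a knockout. The control is 1 library. The control point stands above all 4 knockout points for every gene except MTHFD1L and SHMT2. The ALDH1L2 points of the CFIm59 knockout lines lie near 0, by its choice. Over all genes tested, both lines lay below the control for 36.4% in the CFIm68 and 39.9% in the CFIm59 knockout. The share of all genes below it in all 4 lines was not counted.

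PHGDH, which commits 3-phosphoglycerate to serine synthesis, had 103 and 167 CPM in the CFIm68 knockout lines, 146 and 127 CPM in the CFIm59 knockout lines and 260 CPM in the control. All 4 knockout libraries lay below the control, and the lines of the 2 knockouts overlapped. It averaged 135 ± 45 CPM in the CFIm68 knockout lines (SD, n = 2) and fell there by 0.95 on the log2 scale relative to the control (SE 0.25, edgeR adjusted p = 0.0180). In the CFIm59 knockout lines it averaged 137 ± 13 CPM (SD, n = 2), a log2 change of −0.93 (SE 0.25, edgeR adjusted p = 0.00726).

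PSAT1, the aminotransferase that follows PHGDH, had 120 and 197 CPM in the CFIm68 knockout lines, 180 and 131 CPM in the CFIm59 knockout lines and 316 CPM in the control. Both knockouts lay below the control without overlap, and overlapped each other. The log2 change was −1.002 in the CFIm68 knockout lines (SE 0.25, edgeR adjusted p = 0.0131) and −1.03 in the CFIm59 knockout lines (SE 0.25, edgeR adjusted p = 0.00340). With DESeq2 neither gene passed: PHGDH had an adjusted p of 0.104 in the CFIm68 and 0.0797 in the CFIm59 knockout lines, and PSAT1 of 0.0918 and 0.0518. The CFIm68 calls also rested on line 1, without which the edgeR adjusted p was 0.164 for PHGDH and 0.120 for PSAT1, and the CFIm59 calls on line 2, without which it was 0.0792 and 0.0882.

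PSPH, the phosphatase that releases serine, had 36.8 and 38.2 CPM in the CFIm68 knockout lines, 42.0 and 33.6 CPM in the CFIm59 knockout lines and 45.1 CPM in the control. Its log2 change was −0.27 in each knockout (edgeR adjusted p = 0.699 in the CFIm68 and 0.591 in the CFIm59 knockout lines). The intervals of 2 SE, −0.83 to 0.30 and −0.84 to 0.31, hold 0 and overlap those of PHGDH, which were −1.45 to −0.45 and −1.43 to −0.43.

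The mitochondrial SHMT2, which splits serine to glycine and a folate-bound carbon, had 83.1 and 99.0 CPM in the CFIm68 knockout lines, 122 and 133 CPM in the CFIm59 knockout lines and 126 CPM in the control. The CFIm68 knockout lines lay below the 3 other libraries, and the control lay between the CFIm59 knockout lines. No comparison passed: the log2 change was −0.47 (edgeR adjusted p = 0.332) in the CFIm68 and 0.02 (edgeR adjusted p = 0.969) in the CFIm59 knockout lines, and −0.49 between them (SE 0.21, edgeR adjusted p = 0.0888). SHMT1, the cytosolic enzyme, had 47.3 and 48.4 CPM in the CFIm68 knockout lines, 37.2 and 49.3 CPM in the CFIm59 knockout lines and 58.7 CPM in the control, with log2 changes of −0.29 and −0.42 that did not pass (edgeR adjusted p = 0.642 and 0.326).

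MTHFD2, the mitochondrial dehydrogenase and cyclohydrolase, had 174 and 172 CPM in the CFIm68 knockout lines, 167 and 123 CPM in the CFIm59 knockout lines and 278 CPM in the control. Every knockout library lay below the control. It fell in the CFIm59 knockout lines by 0.94 on the log2 scale (SE 0.24, edgeR adjusted p = 0.00492) and was the member whose call there held with DESeq2, although not without CFIm59 knockout line 2 (edgeR adjusted p = 0.140). In the CFIm68 knockout lines its log2 change of −0.68 (SE 0.24) did not pass (edgeR adjusted p = 0.09996).

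MTHFD1L, the mitochondrial formyltetrahydrofolate synthetase that releases formate, had 69.2 and 111 CPM in the CFIm68 knockout lines, 82.2 and 64.6 CPM in the CFIm59 knockout lines and 95.5 CPM in the control. The CFIm68 knockout lines lay on both sides of the control, with a log2 change of −0.09 (edgeR adjusted p = 0.919), and the value in the CFIm59 knockout lines was −0.39 (edgeR adjusted p = 0.374). MTHFD1, the cytosolic enzyme with the synthetase, cyclohydrolase and dehydrogenase activities, had 234 and 318 CPM in the CFIm68 knockout lines, 310 and 320 CPM in the CFIm59 knockout lines and 355 CPM in the control. Its log2 changes of −0.36 (edgeR adjusted p = 0.465) and −0.17 (edgeR adjusted p = 0.695) did not pass.

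ALDH1L2, the mitochondrial 10-formyltetrahydrofolate dehydrogenase, had 72 and 41 reads in the CFIm68 knockout lines, 2 reads and 1 read in the CFIm59 knockout lines and 136 reads in the control. These are 25.0 and 18.2 CPM, 1.20 and 0.414 CPM, and 51.1 CPM. The 3 groups did not overlap, with the CFIm68 knockout lines between the other 2. The CFIm59 knockout lines together stood at 1.44% of the control level, with an exact 95% interval of 0.293% to 4.29% that covers counting error only. CFIm59 knockout line 1 stood at 2.35% (0.282% to 8.65%) and line 2 at 0.810% (0.0204% to 4.59%). As the gene was chosen for this, no test is given. CFIm68 knockout line 1 stood at 48.9% of the control (36.2% to 65.6%) and line 2 at 35.6% (24.5% to 50.8%), a log2 change of −1.23 (SE 0.31, edgeR adjusted p = 0.0123). That comparison uses the control library that the choice used, and it did not pass without CFIm68 knockout line 2 (edgeR adjusted p = 0.0909).

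Between the CFIm68 and CFIm59 knockout lines none of the 8 members other than ALDH1L2 was called at an adjusted p under 0.05, in a comparison that called 9.46% of all genes higher and 10.3% lower. Their log2 differences, CFIm68 over CFIm59, ran between −0.49 for SHMT2 (the 1 member with an unadjusted p under 0.05 here) and 0.30 for MTHFD1L. DESeq2 also called none of them. For PHGDH the difference was −0.02 with an interval of 2 SE of −0.45 to 0.41, and for PSAT1 it was 0.03 with −0.41 to 0.46. Differences between the knockouts within those bounds are not excluded, and the bounds are not a limit of detection.

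**Figure D2:**
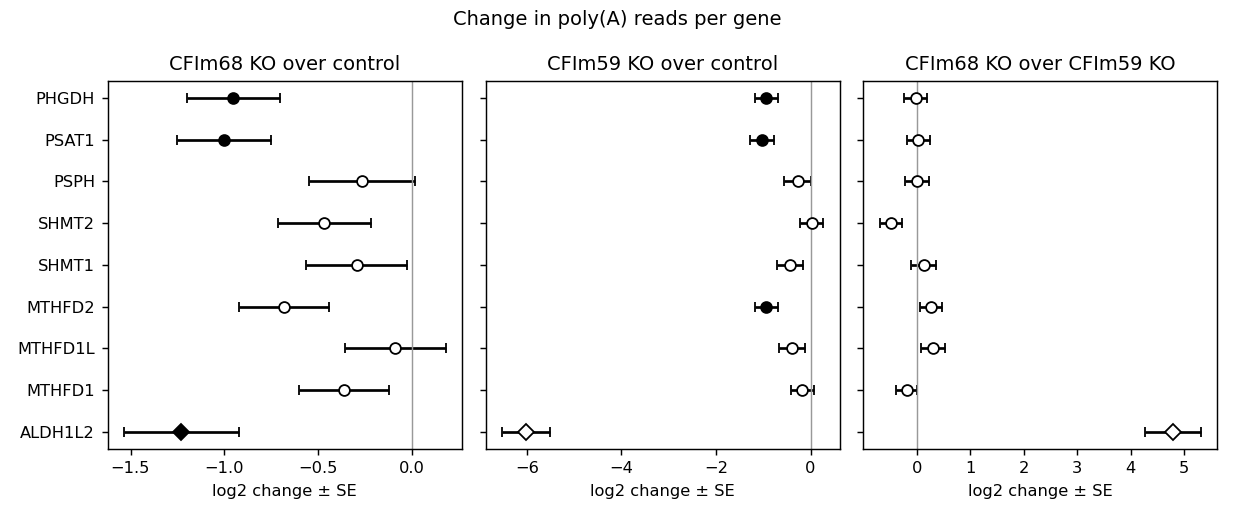
Log2 change of reads per gene (point) with its standard error (bar) in each comparison, from edgeR. Filled points passed the adjusted p threshold of 0.05, open points did not, and diamonds mark ALDH1L2, whose open diamonds carry no test because the gene was chosen on the CFIm59 knockout lines. PHGDH and PSAT1 lie near −1 in both comparisons with the control and near 0 between the knockouts, and the horizontal scales differ between panels.

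Reads of most members lay at 1 or a few last exon sites. Positions are hg19 as deposited. PHGDH had 1902 of its 1915 reads at 1 site, chr1:120286836, and ALDH1L2 had 193 of its 252 reads at chr12:105413563, so neither had a pair of sites with enough reads to test. At that ALDH1L2 site stood 47 and 30 reads in the CFIm68 knockout lines, 1 and 0 in the CFIm59 knockout lines and 115 in the control. The site held 65.3% and 73.2% of the gene's reads in the CFIm68 knockout lines and 84.6% in the control. Against all other reads of the gene this difference did not pass (log2 odds −1.34, SE 0.55, edgeR unadjusted p = 0.0157, adjusted p = 0.0637). Over all 25 sites listed for ALDH1L2 the CFIm59 knockout lines held the 2 reads and 1 read given above, the values for which the gene was chosen.

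Of the 7 members with a testable pair of major sites, none was called toward the proximal or the distal site in either knockout against the control, by edgeR or DESeq2. At an unadjusted p under 0.05 stood 1 of them in edgeR, MTHFD1 in the CFIm59 knockout lines (log2 change −1.98, adjusted p = 0.108). Over all 5869 genes tested, 25.0% were called to proximal and 3.1% to distal in the CFIm68 knockout lines, and 0.988% and 4.99% in the CFIm59 knockout lines. The median log2 change in the proximal to distal ratio was 0.03 over the 7 members and 0.61 over all genes in the CFIm68 knockout lines, and −0.27 and −0.34 in the CFIm59 knockout lines. Between the CFIm68 and CFIm59 knockout lines MTHFD1 and SHMT1 were called toward proximal, 2 of 7 members, where 40.5% of all genes were called to proximal and 6.08% to distal.

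Among the single sites called, the difference between the knockouts was largest at the distal 3′ end of MTHFD2, chr2:74444680, which is 2258 nt downstream of the gene's main site at chr2:74442422 and lies outside its pair of major sites. It held 3 and 4 reads in the CFIm68 knockout lines, 37 and 38 in the CFIm59 knockout lines and 37 in the control. This was 0.598% and 1.03% of MTHFD2 reads in the CFIm68 knockout lines, 13.3% and 12.8% in the CFIm59 knockout lines and 5.01% in the control (Wilson 95% interval 3.66% to 6.83%). The 3 groups did not overlap, with the control between the knockouts. The share fell in the CFIm68 knockout lines (log2 odds −2.69, SE 0.61, edgeR adjusted p = 2.57e-04) and rose in the CFIm59 knockout lines (1.5, SE 0.43, edgeR adjusted p = 0.0227). The 2 knockouts differed by −4.19 (SE 0.51, edgeR adjusted p = 2.35e-12), CFIm68 over CFIm59. The rise in the CFIm59 knockout lines was lost without line 1 (adjusted p = 0.188), without line 2 (0.163) and with DESeq2 (0.733). Without a read minimum, adjusted over all sites, neither the fall in the CFIm68 knockout lines (adjusted p = 0.187) nor the rise passed. The difference between the knockouts passed under every alternative that was run.

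Unlike the gene as a whole, the distal site was not below the control in the CFIm59 knockout lines. It had 1.04 and 1.78 CPM in the CFIm68 knockout lines, 22.2 and 15.7 CPM in the CFIm59 knockout lines and 13.9 CPM in the control. The main site had 105 and 106 CPM, 90.7 and 55.9 CPM, and 157 CPM, and the site at chr2:74442194 had 40.6 and 42.6 CPM, 26.4 and 25.3 CPM, and 69.2 CPM in the same groups. Every knockout line was thus below the control at both of these sites, whereas at the distal site the CFIm59 knockout lines were above it. Over that site and the 3 listed beyond it, chr2:74444765, chr2:74444816 and chr2:74445553, reads numbered 4 and 4 in the CFIm68 knockout lines, 48 and 46 in the CFIm59 knockout lines and 48 in the control. When the pair of sites was instead the most proximal and the most distal with at least 5% of the gene's reads, MTHFD2 was called to proximal in the CFIm68 knockout lines (log2 change 2.19, edgeR adjusted p = 0.0117), the 1 member called against the control under that choice.

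**Figure D3:**
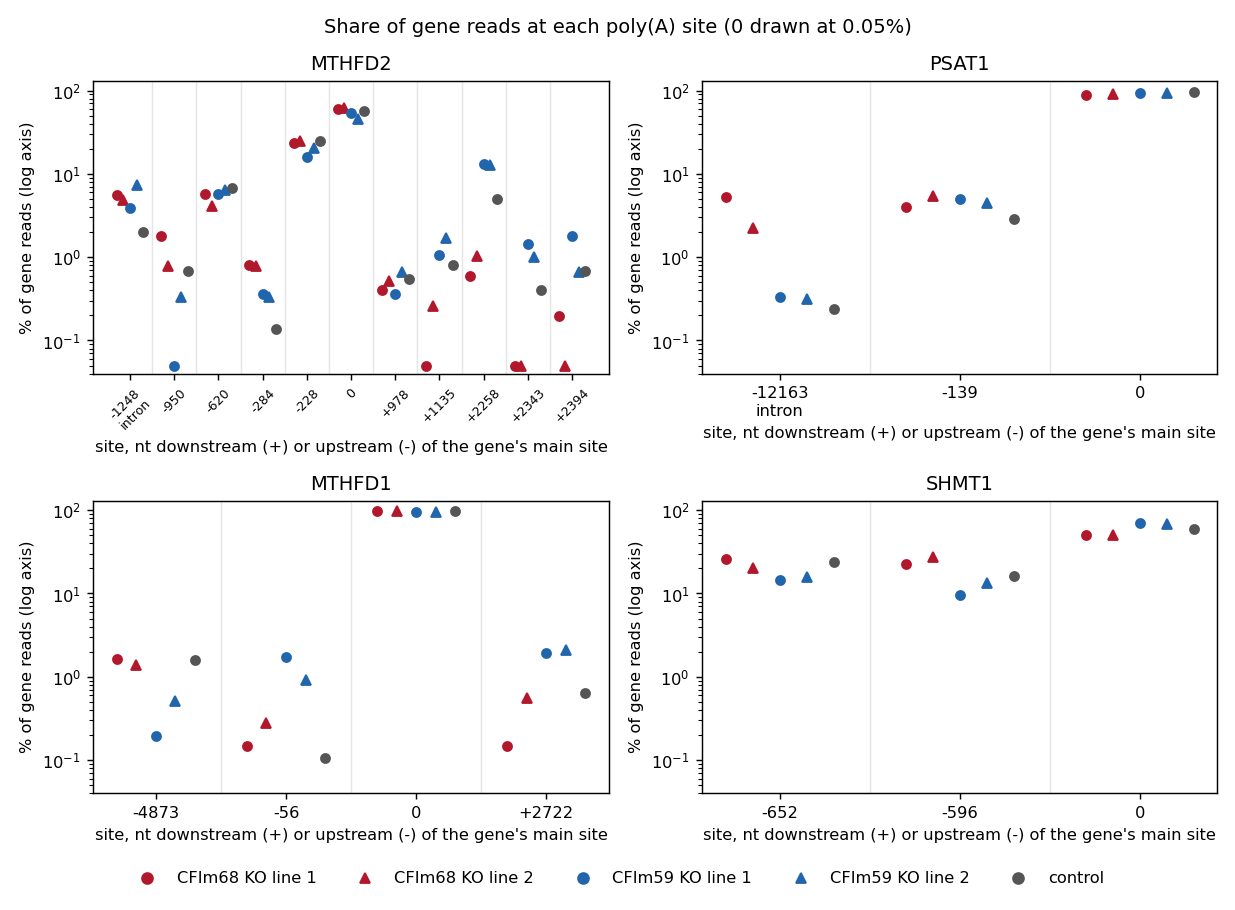
Share of a gene's reads (percent, log axis, 0 drawn at 0.05%) at each site with 10 or more reads, for MTHFD2, PSAT1, MTHFD1 and SHMT1, with sites ordered along the transcript and named by their distance from the main site. Circles are line 1, triangles line 2 and grey the control. At the MTHFD2 site 2258 nt downstream the CFIm68 knockout lines lie at 0.598% and 1.03% and the CFIm59 knockout lines at 13.3% and 12.8%, with the control at 5.01%.

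Across the 22 sites tested in the members other than ALDH1L2, each against all other reads of its gene, 2 had a higher and 2 a lower share in the CFIm68 knockout lines than in the control (10.7% and 12.3% of all 20794 sites). For the CFIm59 knockout lines 1 was higher and none lower (1.58% and 2.43% of all sites). DESeq2 called none either way, and 1 site, chr14:64921849 of MTHFD1, was lower there at an unadjusted p under 0.05. Between the CFIm68 and CFIm59 knockout lines 3 were higher and 3 lower (21.5% and 20.5% of all sites). Without a read minimum 1 of these calls passed, the difference between the knockouts at the MTHFD2 site above. The counts include chr9:80932844 of PSAT1 and chr14:64929444 of MTHFD1, which met the read minimum only through the knockout lines where they were high. Sites of 1 gene share its reads, so their changes are not independent of each other.

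PSAT1 had a larger share of its reads at 1 intron site in the CFIm68 knockout lines than in the 3 other libraries. Its site at chr9:80932844, 12163 nt upstream of the main site, held 18 and 10 reads in the CFIm68 knockout lines, 1 and 1 in the CFIm59 knockout lines and 2 in the control. These were 5.20% and 2.26%, 0.333% and 0.315%, and 0.238% of PSAT1 reads, so that both CFIm68 knockout lines stood above the 3 other libraries. The log2 odds were 3.87 against the control (SE 0.83, edgeR adjusted p = 1.13e-04) and 3.37 against the CFIm59 knockout lines (SE 0.81, edgeR adjusted p = 2.56e-04). The site met the minimum of 5 reads on average only through the CFIm68 knockout lines, where it was high. These p-values are therefore no independent support for the difference. Without CFIm68 knockout line 1 the site fell below the read minimum of the test and gave no value, and without a read minimum, adjusted over all sites, it did not pass (adjusted p = 0.113 and 0.112). The main site at chr9:80945007 held 89.0% and 90.1% of reads in the CFIm68 knockout lines, 93.7% and 93.4% in the CFIm59 knockout lines and 96.0% in the control, a fall in the CFIm68 knockout lines (−1.46, SE 0.43, edgeR adjusted p = 0.00592) that DESeq2 did not call (adjusted p = 0.165). In CPM the intron site had 6.25 and 4.44 in the CFIm68 knockout lines and 0.752 in the control, against 107 and 177 and 304 at the main site.

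MTHFD2 also had an intron site, chr2:74441174, with 28 and 19 reads in the CFIm68 knockout lines, 11 and 22 in the CFIm59 knockout lines and 15 in the control. Its share was 5.58% and 4.91%, 3.94% and 7.38%, and 2.03%, with every knockout library above the control. It passed in the CFIm68 knockout lines (log2 odds 1.42, SE 0.52, edgeR adjusted p = 0.0354) but not with DESeq2 (adjusted p = 0.286), without CFIm68 knockout line 1 (0.114) or without either CFIm59 knockout line (0.0568 and 0.0508), and in the CFIm59 knockout lines its value of 1.53 did not pass (edgeR adjusted p = 0.0922).

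In MTHFD1 95.3% to 97.5% of reads lay at chr14:64926722, and the minor ends on both sides of it differed between the knockouts. The site 4873 nt upstream, chr14:64921849, held 11 and 10 reads in the CFIm68 knockout lines, 1 and 4 in the CFIm59 knockout lines and 15 in the control. Its share was higher in the CFIm68 than in the CFIm59 knockout lines (log2 odds 1.94, SE 0.70, edgeR adjusted p = 0.0176), a call that was lost with DESeq2 (adjusted p = 0.0825), without CFIm68 knockout line 1 (0.0662) and without CFIm59 knockout line 1 (0.148). The site 2722 nt downstream, chr14:64929444, held 1 and 4 reads in the CFIm68 knockout lines, 10 and 16 in the CFIm59 knockout lines and 6 in the control. It met the minimum of 5 reads on average only through the lines where it was high, so its p-value is no independent support. Its share was lower in the CFIm68 than in the CFIm59 knockout lines (−2.46, SE 0.67, edgeR adjusted p = 0.00128), which did not pass without a read minimum (0.238). For the pair of major sites the log2 difference was 1.90 (SE 0.69, edgeR adjusted p = 0.0194), likewise lost with DESeq2 (0.0695) and without either of those lines (0.0747 and 0.138). A further site at chr14:64926666, only 56 nt from the main one, held 1 and 2 reads in the CFIm68 knockout lines, 9 and 7 in the CFIm59 knockout lines and 1 in the control.

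SHMT1 used 3 last exon sites. The most distal, chr17:18231187, held 50.7% and 50.5% of its reads in the CFIm68 knockout lines, 71.0% and 68.9% in the CFIm59 knockout lines and 59.6% in the control (Wilson 95% interval 51.8% to 67.0%). Its share was lower in the CFIm68 than in the CFIm59 knockout lines (log2 odds −1.16, SE 0.38, edgeR adjusted p = 0.00757). The site 596 nt upstream, chr17:18231783, held 22.8% and 27.5%, 9.68% and 13.4%, and 16.0%, and was higher in the CFIm68 than in the CFIm59 knockout lines (1.27, SE 0.45, edgeR adjusted p = 0.0149). At both sites the control lay between the knockouts and no comparison with it passed. The pair of major sites, 652 nt apart, gave 1.04 (SE 0.44, edgeR adjusted p = 0.0499), and the single-site and pair calls were lost with DESeq2 (adjusted p = 0.144 and 0.139 for the sites and 0.238 for the pair). In edgeR the pair call was also lost with no read minimum (adjusted p = 0.155) and with the proximal and distal ends (0.0545). It was lost too with the line number as replicate block (0.0622). Over the fits that left out a line, the log2 difference of the pair ranged between 0.849 and 1.19. Without CFIm59 knockout line 1 the 2 sites had 0.0551 and 0.109, without line 2 0.0598 and 0.0530, and chr17:18231783 had 0.0743 without CFIm68 knockout line 2.

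The remaining members showed no called site. SHMT2 used 2 sites 208 nt apart, and the proximal one held 78.2% and 73.4% of the pair in the CFIm68 knockout lines, 79.4% and 81.6% in the CFIm59 knockout lines and 75.4% in the control. PSPH ended at 5 last exon sites with 10 or more reads, of which chr7:56078760 held 53.8% and 59.3% of reads in the CFIm68 knockout lines, 65.7% and 50.6% in the CFIm59 knockout lines and 55.8% in the control. MTHFD1L had a last exon site of a short transcript, chr6:151220132, at 23.1% and 13.5% in the CFIm68 knockout lines, 16.8% and 14.7% in the CFIm59 knockout lines and 24.0% in the control, 202889 nt before its main site. Its intron site at chr6:151247769 held 6 and 5 reads in the CFIm68 knockout lines and none in the CFIm59 knockout lines or the control, which allows shares of up to 2.19%, 1.92% and 1.18% in those 3 libraries, and was below the read minimum of the test. Of the 73 MTHFD1L sites listed, 7 were listed also under a neighbouring gene, and these held 9 reads in all. The 7 pseudogenes of members that are listed held 0 to 10 reads in any library, so few reads stood under those near copies.

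The other enzymes and carriers of folate metabolism, a list of 19 genes of which 17 passed the filter on low counts, held no call in the CFIm68 knockout lines with edgeR at an adjusted p under 0.05, although 6 had an unadjusted p under 0.05, and DESeq2 called none. Their median log2 change there was −0.27. In the CFIm59 knockout lines 2 rose (6.98% of all genes) and none fell, with a median of −0.04. These were TYMS, thymidylate synthase, with 140 and 148 CPM in the CFIm68 knockout lines, 324 and 208 CPM in the CFIm59 knockout lines and 148 CPM in the control (log2 change 0.84, edgeR adjusted p = 0.0240), and FPGS, which adds glutamates to folates (1.03, edgeR adjusted p = 0.0496). DESeq2 called neither, and without CFIm59 knockout line 1 both FPGS (adjusted p = 0.380) and TYMS (0.353) were lost. None of the 3 glycine cleavage genes with enough reads was called in either knockout by edgeR or DESeq2, with 1 at an unadjusted p under 0.05 in the CFIm68 and 2 in the CFIm59 knockout lines. Without a filter on low counts, edgeR called 1 of 4 lower in the CFIm68 knockout lines (2.03% of all genes with the filter).

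Genes that use or carry serine split. Of 15, 3 fell and 1 rose in the CFIm59 knockout lines, where 6.87% of all genes fell and 6.98% rose. CTH, which makes cysteine from cystathionine, had 21.6 and 22.2 CPM in the CFIm68 knockout lines, 6.004 and 6.21 CPM in the CFIm59 knockout lines and 34.97 CPM in the control, and CBS, which condenses serine with homocysteine, had 251 and 391 CPM, 121 and 150 CPM, and 418 CPM. The CFIm59 knockout lines were the lowest for both genes, with log2 changes of −2.50 for CTH (edgeR adjusted p = 2.46e-06) and −1.62 for CBS (edgeR adjusted p = 3.34e-06). SFXN1, the carrier of serine into mitochondria, had 277 and 296 CPM in the CFIm68 knockout lines, 133 and 142 CPM in the CFIm59 knockout lines and 235 CPM in the control (−0.77 in the CFIm59 knockout lines, edgeR adjusted p = 0.0218; DESeq2 0.0716; without line 1 0.147 and without line 2 0.0923). SPTLC2, a subunit of serine palmitoyltransferase, rose there (0.87, edgeR adjusted p = 0.0325; DESeq2 0.251; without line 1 0.0704 and without line 2 0.102). In the CFIm68 knockout lines 2 of 15 rose (1.59% of all genes) and none fell: SLC1A4, a neutral amino acid transporter (1.48, edgeR adjusted p = 0.0329), and SPTLC1, the partner of SPTLC2 (1.18, edgeR adjusted p = 0.00830), neither of them called by DESeq2, and SLC1A4 not without CFIm68 knockout line 1 (adjusted p = 0.126). Between the CFIm68 and CFIm59 knockout lines 6 of 15 were higher and 1 lower, beside 9.46% and 10.3% of all genes, with CTH at 1.83 (edgeR adjusted p = 8.53e-05) and CBS at 1.24 (edgeR adjusted p = 1.76e-05). The 1 lower became 0 with DESeq2, without a filter on low counts and without any 1 of the 4 knockout lines.

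ATF4 and its known targets fell in number in the CFIm59 knockout lines. Of 30 genes tested, 13 fell and none rose there (median log2 change −0.65), where 6.87% of all genes fell and 6.98% rose, and DESeq2 called 7 lower. In the CFIm68 knockout lines 2 fell (2.03% of all genes), DDIT4 and EPRS, and none rose (median −0.29), EPRS not without CFIm68 knockout line 1 (adjusted p = 0.0546). Between the CFIm68 and CFIm59 knockout lines 14 were higher and 2 lower, beside 9.46% and 10.3% of all genes. The 14 became 6 with DESeq2, 8 without CFIm68 knockout line 2, 7 without CFIm59 knockout line 1 and 8 without CFIm59 knockout line 2. The list, taken from general knowledge of ATF4, does not hold the 9 members. ATF4 itself had 334 and 462 CPM in the CFIm68 knockout lines, 289 and 236 CPM in the CFIm59 knockout lines and 514 CPM in the control, a fall in the CFIm59 knockout lines (log2 change −0.97, SE 0.24, edgeR adjusted p = 0.00324).

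DDIT4, an inhibitor of mTORC1 signalling, had 133 and 95.0 CPM in the CFIm68 knockout lines, 49.2 and 46.0 CPM in the CFIm59 knockout lines and 320 CPM in the control. STC2, a secreted glycoprotein, had 81.7 and 80.4 CPM, 24.0 and 33.1 CPM, and 121 CPM, and PCK2, mitochondrial phosphoenolpyruvate carboxykinase, 39.3 and 39.5 CPM, 18.01 and 11.6 CPM, and 51.9 CPM. For each of the 3 the CFIm59 knockout lines were lowest and the control highest, with log2 changes in the CFIm59 knockout lines of −2.75 for DDIT4 (edgeR adjusted p = 3.95e-12), −2.06 for STC2 (edgeR adjusted p = 8.92e-08) and −1.84 for PCK2 (edgeR adjusted p = 2.62e-05). SLC7A11, the cystine importer, had 15.6 and 19.98 CPM in the CFIm68 knockout lines, 5.40 and 3.31 CPM in the CFIm59 knockout lines and 15.4 CPM in the control (−1.86, edgeR adjusted p = 0.00430; DESeq2 0.165; without line 2 0.0831). For PHGDH, PSAT1 and MTHFD2 the log2 differences between the CFIm68 and CFIm59 knockout lines were −0.02, 0.03 and 0.26, none of them called.

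Of the 12 glycolytic genes, 2 fell in the CFIm68 and 4 in the CFIm59 knockout lines and none rose, where 2.03% and 6.87% of all genes fell. PGK1, which makes the 3-phosphoglycerate that PHGDH uses, had 568 and 412 CPM in the CFIm68 knockout lines, 421 and 489 CPM in the CFIm59 knockout lines and 1022 CPM in the control. Like PHGDH and PSAT1, PGK1 lay below the control in every knockout line with the 2 knockouts overlapping, at log2 changes of −1.06 (edgeR adjusted p = 0.00388) and −1.17 (edgeR adjusted p = 3.18e-04). ALDOA, aldolase A, was called in both knockouts, at −0.95 (edgeR adjusted p = 0.0130) and −0.85 (edgeR adjusted p = 0.0109). It was lost without CFIm68 knockout line 2 (0.0789), without CFIm59 knockout line 1 (0.125) and, in the CFIm59 knockout lines, with DESeq2 (0.0582). HK2 and PGAM1 fell in the CFIm59 knockout lines, at −1.64 (edgeR adjusted p = 0.00583) and −0.67 (edgeR adjusted p = 0.0458), but not with DESeq2 (0.207 and 0.132), and PGAM1 not without CFIm59 knockout line 1 (0.303) or line 2 (0.0860). Among 10 other aldehyde dehydrogenases none was called in the CFIm68 knockout lines by edgeR or DESeq2 (2 had an unadjusted p under 0.05), and 2 rose (ALDH1A3 and ALDH16A1) and 2 fell (ALDH6A1 and ALDH2) in the CFIm59 knockout lines, beside 6.98% and 6.87% of all genes, none of them with DESeq2.

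**Figure D4:**
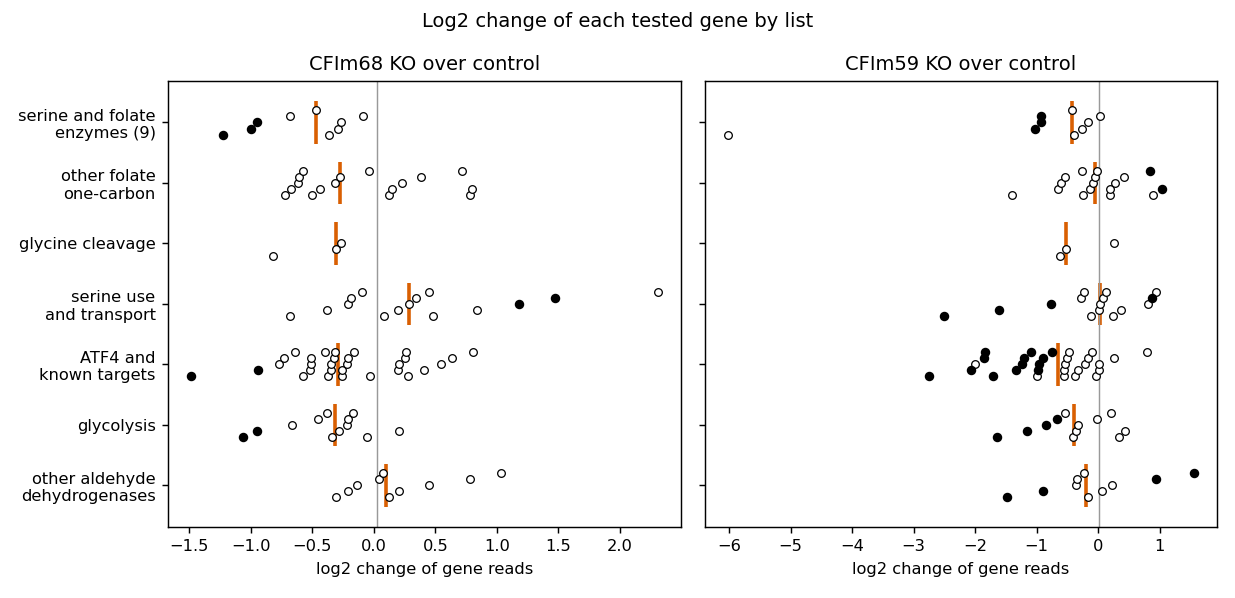
Log2 change of each tested gene of the 9 members and of the 6 lists (points), in the CFIm68 (left) and CFIm59 (right) knockout lines over the control. Filled points passed the edgeR adjusted p threshold of 0.05, the orange bar is the median of a list and the grey line the median of all genes. The median bar of the 9 members includes ALDH1L2, chosen for its values in the CFIm59 knockout lines. In the right panel 13 of 30 points of ATF4 and its targets are filled, each of the filled ones below 0, and the open point at −6.02 is ALDH1L2, which carries no test there.

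The genes whose levels over the 5 libraries were most like those of ALDH1L2 were ranked by the Euclidean distance between log2(CPM + 0.5) values centred on each gene's mean, among 10459 genes. The nearest were MGST1 (distance 0.808), LA16c-83F12.6 (0.970), PLTP (1.02), PPP1R14A (1.11) and TSC22D3 (1.13). MGST1 had 26.8 and 39.5 CPM in the CFIm68 knockout lines, 1.80 and 1.24 CPM in the CFIm59 knockout lines and 89.5 CPM in the control. PLTP had 31.3 and 31.5 CPM, 2.402 and 2.48 CPM, and 84.6 CPM. Since they were picked for likeness to a gene chosen on these libraries, their shared order is no result. The distance rests largely on the loss in the CFIm59 knockout lines for which ALDH1L2 was chosen, so the distances of the other 8 members are a description too. The closest, MTHFD2, stood at a distance of 4.48 with 1187 genes closer, and the farthest, SHMT2, at 5.45 with 7560 genes closer.

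**Figure D5:**
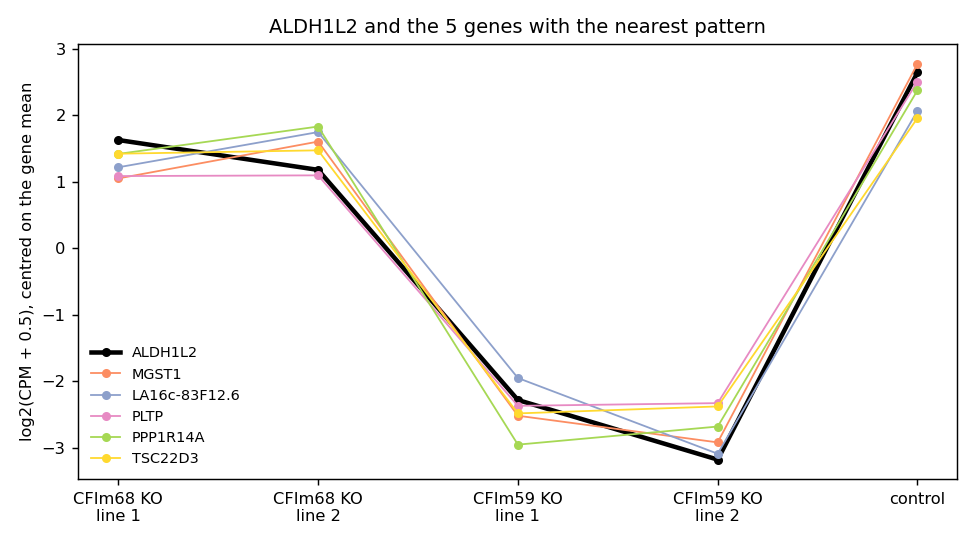
Log2(CPM + 0.5) centred on each gene's mean over the 5 libraries, for ALDH1L2 (black) and the 5 genes at the smallest distance to it, which was 0.808 for MGST1 and 1.13 for TSC22D3. Points are libraries, and the lines only join the points of a gene.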

How the data were processed

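The study sequenced poly(A) sites of HEK293T cells in 5 libraries: CFIm68 knockout lines 1 and 2, CFIm59 knockout lines 1 and 2, and 1 control. Per the labels' protocols, fragmented total RNA was copied with an oligo(dT) primer, and cDNA was circularised, cut open and amplified. The authors deposited whole read counts for every site in each library, with positions and site classes per the file headers. The submitters' processing notes name hg19, TopHat2 2.1.0 and deepTools 2.4, with no role for each. Site calling, handling of internal priming, the annotation release and whether positions count from 0 or 1 are not stated in these sources. The table had 290072 listings of 272248 distinct sites; sites listed again under another gene held reads only once. All 5 columns were mapped to samples.

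Gene sums of reads were filtered with filterByExpr, scaled by TMM and fitted with edgeR 4.0.16 (R 4.3.3), quasi-likelihood test, 2-sided, Benjamini-Hochberg adjustment over 14636 genes, threshold 0.05. CPM are counts rescaled by library total after TMM. For site pairs, the 2 sites with most reads per gene (20 reads together and 5 each on average) were fitted with library and the interaction of site and group as terms. Single sites were fitted against all other reads of their gene in the same way, a fit added after the data were seen. All libraries entered each fit, so the lone control was taken to vary like the knockout lines. Log2 odds and changes are the first group named over the second. Intervals and the floor of 3 reads cover counting error only, since reads are not independent molecules. Scripts were tested on simulated data.

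Members and lists were chosen with earlier results of these data known. All members were named, with every site of 10 or more reads considered. From each of 6 lists up to 4 called genes per comparison with a mean count of 20 or more were selected by size of change, and genes of small counts of calls were added. The 5 genes nearest to ALDH1L2, leaving out antisense symbols and those that start with prefixes such as LOC, LINC or CTD, used a pseudocount of 0.5 CPM. One gene of the folate list is not reported here. Replicate numbers of the 2 knockouts are shared names only. Alternatives were DESeq2 1.42.0, its size factors, other read minimums, reads without mitochondrial sites, other site pairs, a block for line number and leaving out each knockout line.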

Additional observations from a re-analysis of the deposited data

Results flagged for a closer look

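At 4 sites the CFIm68 and CFIm59 knockout lines lay on opposite sides of the control and differed from each other in edgeR's single-site test. That comparison called 21.5% of all 20794 sites higher and 20.5% lower. How many of all sites also lay on opposite sides of the control was not counted, so the pattern is not shown to be particular to these genes. The log2 odds, CFIm68 over CFIm59, were −4.19 at the MTHFD2 site chr2:74444680 and −2.46 at the MTHFD1 site chr14:64929444, both ends downstream of the gene's main site. At SHMT1 they were −1.16 at the distal site chr17:18231187 and 1.27 at chr17:18231783, which are parts of 1 whole. The adjusted p-values were 2.35e-12, 0.00128, 0.00757 and 0.0149 in the same order, and the share was lower in 2 of 2 CFIm68 knockout lines than in both CFIm59 knockout lines at the first 3 and higher at the last. At the 2 downstream ends of MTHFD2 and MTHFD1 the CFIm68 knockout lines had 3, 4, 1 and 4 reads, so their shares rest on few reads. The MTHFD1 site met the read minimum of the test only through the CFIm59 knockout lines, where it was high. Without a read minimum the MTHFD1 and SHMT1 sites did not pass (adjusted p = 0.238, 0.588 and 0.796 in the order above).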

How the results depend on the processing

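Of the counts of members called, 118 stayed within 1.5 times under an alternative and 32 moved. Counts of 0 that stayed 0 are among the 118, so that number does not measure how far the calls themselves held. In CFIm68 knockout lines against the control, the 3 members called lower became 0 with DESeq2, which gave no adjusted p for ALDH1L2, and 1 to 3 over the fits that left out a line. In CFIm59 knockout lines against the control, the 3 became 1 with DESeq2 and 0 to 3 over those fits. For site pairs against the control, 1 member was called to proximal in the CFIm68 knockout lines with the most proximal and most distal pair. Between the CFIm68 and CFIm59 knockout lines the 2 members to proximal became 0 with DESeq2, 0 with the minimum of 100 reads, 0 with no minimum, 1 with the proximal and distal ends, 1 with the line number as replicate block and 0 to 1 over the fits that left out a line. Of single sites in the CFIm68 knockout lines, the 2 higher became 1 with DESeq2, 0 with the stricter minimum, 0 with no minimum and 0 to 2 without a line, and the 2 lower became 1 with DESeq2 and 0 with no minimum. In the CFIm59 knockout lines the 1 higher became 0 with DESeq2, 0 with no minimum and 0 to 2 without a line. Between the knockouts the 3 higher became 1 with DESeq2, 0 with no minimum and 1 to 2 without a line, and the 3 lower became 1 with no minimum. The cause of these moves was not tested, except that a test without a minimum adjusts over 197784 sites.

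Signs turned for values that had not passed. The MTHFD2 pair gave 2.193 in the CFIm68 knockout lines with the other pair of sites, and −0.5938 to 0.03869 in the CFIm59 knockout lines over the fits that left out a line. MTHFD1L expression ranged over such fits between −0.4631 and 0.2216 in the CFIm68 knockout lines and between −0.07213 and 0.6061, CFIm68 over CFIm59. SHMT2 expression in the CFIm59 knockout lines ranged between −0.03246 and 0.0893 and was −0.05157 without a filter.

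DESeq2 called 15 genes higher and 63 lower in CFIm68 knockout lines and 284 and 318 in CFIm59 knockout lines, where edgeR called 232 and 297, and 1022 and 1006. Deviations of lines with the same number from their group means were not related (correlation 0.01 over 10970 genes, 2 pairs). The block was fitted to the 4 knockout libraries alone, so it bears on CFIm68 against CFIm59 and on no comparison with the control. Under it the SHMT1 pair had an adjusted p of 0.0622. With 2 lines and 1 control library, changes in members of under 100 reads per library were the least precise.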
